A study of Mus musculus with 12 samples.

Results

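The Egr factors and their Nab corepressors are represented by 6 genes, Egr1, Egr2, Egr3, Nab1, Nab2 and Srf, whose rows were chosen by gene symbol from the 50559 rows of the count table. All 6 were found. Their transcripts were counted by RNA sequencing of macrophages grown from the bone marrow of C57BL/6 mice. The cells had received an extract of house dust mite (HDM), a common airway allergen, or vehicle for 1 h. There were 6 HDM libraries and 6 vehicle libraries, numbered 1 to 6 in each group, and the labels name no genetic change in either. Whether each library is a separate animal or culture is not in the labels, so each p-value reflects library spread that may be only technical.

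Egr1, Egr2 and Egr3 are zinc finger transcription factors that bind a shared GC-rich site and are made within minutes of growth factor, stress or pattern receptor signals. Many of these signals reach the Egr genes through serum response factor, encoded by Srf, which binds CArG boxes together with ternary complex factors of the Elk family that the ERK kinase phosphorylates. Nab1 and Nab2 are corepressors that bind Egr proteins and restrain them, and Nab2 is itself an Egr target, which closes a feedback loop. In developing myeloid cells of mice, Egr1, Egr2 and Nab2 act against neutrophil genes and favour the macrophage fate.

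Reads assigned to genes ranged from 19.7 M to 119.7 M per library. All 8 macrophage markers, among them Adgre1 and Csf1r, had a mean of at least 1 CPM (counts per M reads), and their summed level was 17900 to 21300 CPM with HDM and 16800 to 21100 CPM with vehicle. Lyz2 made up most of that sum. Cd14, named after its values were seen, was at 1190 CPM with HDM and 507 CPM with vehicle (edgeR adjusted p = 0.000162), and none of the others was called. Adgre1 had 1440 to 1480 CPM in libraries numbered 5 and 6 and 2470 to 2780 CPM in those numbered 1 to 4. Summed markers lay at 2.09 to 5.17 CPM with HDM and 3.1 to 6.82 CPM with vehicle for stroma and endothelium, and at 3.71 to 6.19 CPM and 3.48 to 5.49 CPM for neutrophils, where Retnlg was at 0. Of the 6 stromal and endothelial markers, Pecam1, at 2.03 CPM with HDM and 1.99 CPM with vehicle, had the highest mean, and the collagen genes, named after their values were seen, had lower means with HDM, Col1a1 at 0.449 CPM against 1.11 CPM with vehicle and Col1a2 at 0.467 CPM against 0.931 CPM. edgeR called neither (adjusted p = 0.342 for Col1a1 and 0.575 for Col1a2), and with the library number as a block both were called lower (0.00141 and 0.0485). Their part in the results was not tested. Lymphocyte markers reached at most 0.165 CPM, dendritic cell markers 1.07 CPM and mast cell and basophil markers 0.0502 CPM, with Mcpt8 and Ms4a2 at 0. Libraries numbered 5 and 6 of both treatments stood apart from the other 8 on the first principal component, which held 42.2% of the variance, and results are therefore also given within each set. The labels name no batch, and the part of this split in the results was not tested.

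After 1 h, Egr1 showed the largest fold rise of the members that were tested, Nab2 and Srf rose modestly, and Nab1 differed by less than the spread between libraries. Egr2 was higher with HDM in both library sets and, matched by number, in every number by a similar amount. The labels do not state that equal numbers are pairs. The level of Egr2 differed more between library sets than between treatments. Egr3 was nearly undetected with vehicle and low with HDM. HDM was set against vehicle with the quasi-likelihood F test of edgeR over all 13530 genes that passed its expression filter, two-sided, with Benjamini-Hochberg adjusted p under 0.05 as the threshold. Of those genes 5.37% were called, 2.9% as higher and 2.47% as lower with HDM. The test called 3 of the 5 members tested (Egr1, Nab2 and Srf), all as higher. The members were chosen with earlier results of these data known, so their count beside that share is a description only. Egr3 did not pass the filter. In the edgeR fit without a filter, the log2 rise of Egr3 was 3.37 ± 0.51 SE, on few reads, against 2.57 ± 0.43 for Egr1. The difference between these rises was not tested.

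Per kb of annotated exon, Nab1 had the highest level of the 6, with 28.8 ± 1.16 CPM per kb in HDM libraries and 29.0 ± 1.55 in vehicle libraries (SD, n = 6 each). Srf followed at 19.3 ± 1.5 and 16.2 ± 0.802 CPM per kb. Nab2 stood at 7.04 ± 0.33 CPM per kb with HDM and 5.51 ± 0.23 with vehicle, and Egr2 at 5.36 ± 1.87 and 4.03 ± 1.59, so these neighbours in the order lay within the spread of Egr2. Egr1 was far below, at 1.05 ± 0.798 CPM per kb with HDM and 0.182 ± 0.0446 with vehicle, and Egr3 was lowest at 0.116 ± 0.0608 and 0.0111 ± 0.00892. The corepressor transcripts were thus more abundant per kb than those of Egr1 and Egr3 under both treatments. The lengths are unions of exons in GENCODE M21 (GRCm38), which may differ from the annotation used for counting.

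The promoters show which of the letters read by these factors lie near the start sites of the members. RefSeq windows (GRCm38.p6) of 250 bases before to 50 bases after a start site were found for 4 of the 6 genes, Egr2, Nab1, Nab2 and Srf. They were searched on both strands for the CArG box of serum response factor, the Egr site GCGNGGGCG, the ETS core CCGGAA of the Elk factors, the cAMP response element TGACGTCA, the AP-1 site TGANTCA and the NF-kB site. Capitals mark every match, and the sequences run 5′ to 3′ on the strand of the gene. The first is Egr2 at chr10:67537620-67537919 (plus strand), the second Srf at chr17:46556113-46556412 (minus strand), the third Nab1 at chr1:52500399-52500698 (minus strand) and the last Nab2 at chr10:127666654-127666953 (minus strand).
Egr2 promoter: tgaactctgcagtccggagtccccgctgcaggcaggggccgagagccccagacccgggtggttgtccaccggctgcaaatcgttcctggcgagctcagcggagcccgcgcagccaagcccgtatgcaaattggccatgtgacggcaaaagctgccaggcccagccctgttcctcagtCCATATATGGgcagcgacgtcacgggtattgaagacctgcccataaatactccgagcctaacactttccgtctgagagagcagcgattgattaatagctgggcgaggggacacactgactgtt
Srf promoter: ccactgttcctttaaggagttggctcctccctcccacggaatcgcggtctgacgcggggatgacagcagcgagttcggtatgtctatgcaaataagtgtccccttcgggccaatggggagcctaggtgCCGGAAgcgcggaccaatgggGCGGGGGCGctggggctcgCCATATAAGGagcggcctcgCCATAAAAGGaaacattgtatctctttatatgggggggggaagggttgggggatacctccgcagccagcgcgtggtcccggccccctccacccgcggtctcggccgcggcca
Nab1 promoter: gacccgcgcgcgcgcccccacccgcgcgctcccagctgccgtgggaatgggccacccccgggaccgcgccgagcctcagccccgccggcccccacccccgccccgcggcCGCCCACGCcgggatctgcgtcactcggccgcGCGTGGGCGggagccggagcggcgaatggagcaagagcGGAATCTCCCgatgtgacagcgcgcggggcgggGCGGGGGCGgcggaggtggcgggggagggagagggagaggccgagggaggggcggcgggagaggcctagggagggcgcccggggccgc
Nab2 promoter: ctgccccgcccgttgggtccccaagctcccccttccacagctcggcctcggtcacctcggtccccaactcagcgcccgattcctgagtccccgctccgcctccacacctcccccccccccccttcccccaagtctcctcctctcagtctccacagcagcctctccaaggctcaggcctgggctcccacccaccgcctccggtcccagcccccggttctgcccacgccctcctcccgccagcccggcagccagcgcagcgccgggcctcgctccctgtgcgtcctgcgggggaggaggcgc

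The Egr2 window held 1 CArG box, which began 73 bases before the start site. Another of the 5 Egr2 windows, around a start site further upstream, held a different CArG box that began 72 bases before its start and 3 matches to the ETS core, of which 2 overlap each other. The Egr2 window furthest upstream held 2 NF-kB matches that overlap each other, 117 and 116 bases before its start. The Srf window held 2 CArG boxes, 82 and 62 bases before the start, with an ETS core at 122 and an Egr site at 101 bases. The Nab1 window held 3 Egr sites, at 141, 109 and 38 bases before the start, and an NF-kB match at 71 bases. No match was found in the Nab2 window, which says only that these letters are not in it. Of all 32851 RefSeq promoter windows, 1.63% held a CArG box, 5.55% the Egr site, 14.9% the ETS core, 1.79% the cAMP response element, 7.81% the AP-1 site and 8.46% the NF-kB site. These matches are descriptions of letters and no binding was measured.

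Egr1, the best known early response factor of the family, ran from 1.71 CPM at the lowest over a median of 3.18 to 10.2 CPM at the highest among HDM libraries, against 0.586, 0.779 and 1.14 CPM among vehicle libraries. The groups did not overlap, a property that 2.32% of tested genes had in the same direction. The raw counts behind these values were 63 to 457 reads per library with HDM and 22 to 39 reads with vehicle, so the vehicle level rests on few reads. The HDM libraries averaged 4.69 ± 3.58 CPM of Egr1 and the vehicle libraries 0.815 ± 0.2 CPM (SD, n = 6 each), which on the log2 scale is 2.57 ± 0.47 SE higher (edgeR adjusted p = 0.00518).

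The spread of Egr1 with HDM followed the library numbers. HDM libraries 5 and 6 had 10.2 and 8.14 CPM, and the other 4 had 1.71 to 3.2 CPM. In the vehicle group the same numbers had 1.14 and 0.944 CPM, and the others 0.586 to 0.781 CPM. Within numbers 5 and 6 alone the log2 fold change of Egr1 was 3.19 ± 0.17 SE (edgeR adjusted p = 4.2e-19), and within numbers 1 to 4 it was 1.83 ± 0.25 (adjusted p = 0.000387). Every fit of numbers 5 and 6 alone has 2 libraries a group, so its p-values lean on spread pooled over genes. They are not stronger evidence than those from all 12 libraries. Of all tested genes 4.25% rose within numbers 5 and 6 and 5% within numbers 1 to 4. The difference between the values of Egr1 was not tested. Egr1 rose in both sets, and its HDM library exceeded the vehicle library of the same number by 1.11 to 3.11 on the log2 scale in all 6 numbers.

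Egr2, which in macrophages is also linked to the response to interleukin-4, behaved differently. Its HDM libraries had 12.5 CPM at the lowest, a median of 15.5 and 26.9 at the highest, and its vehicle libraries had 9.12, 11.3 and 20.8 CPM. The groups overlapped, because vehicle libraries 5 and 6, at 20.2 and 20.8 CPM, lay above HDM libraries 1 to 4, at 12.5 to 16.3 CPM. The log2 fold change, 0.43 ± 0.27 SE, had an edgeR adjusted p of 0.597, and Egr2 was not called.

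Matched by library number, the difference of Egr2 was narrow. The labels do not pair same-numbered libraries, so the range by number and the fit with the block rest on a pairing not shown. The fits within each library set do not use that pairing. The HDM library exceeded the vehicle library of the same number by 0.29 to 0.51 on the log2 scale in 6 of 6 numbers. With the library number as a block, Egr2 was called at 0.42 ± 0.04 SE (edgeR adjusted p = 1.38e-06), in a fit that called 14.7% of all genes. It was also called within numbers 5 and 6 (0.35 ± 0.07, adjusted p = 0.000146) and within numbers 1 to 4 (0.49 ± 0.10, adjusted p = 0.00711). Averages per set were 26.2 CPM with HDM and 20.5 CPM with vehicle in numbers 5 and 6, against 14.2 CPM with HDM and 10.2 CPM with vehicle in numbers 1 to 4.

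**Figure D1:**
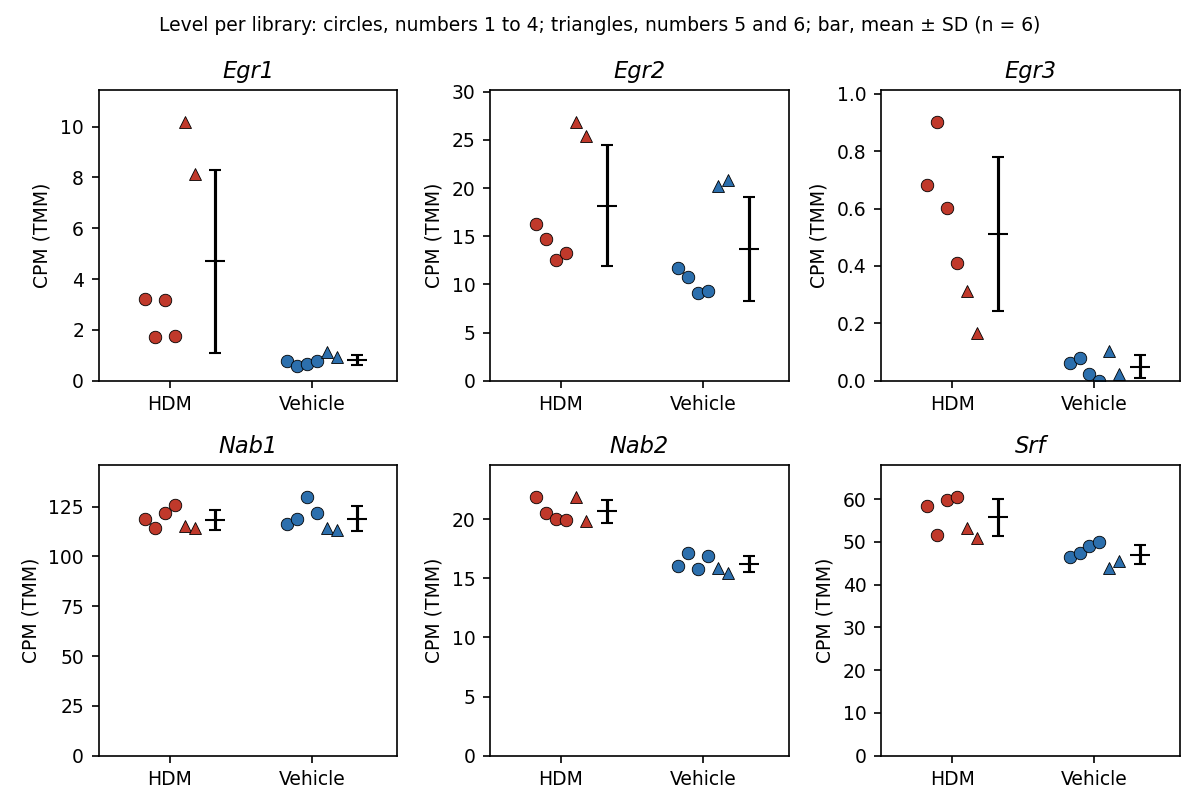
Level of each member in each library in CPM with TMM factors, HDM on the left and vehicle on the right of each panel; circles are libraries numbered 1 to 4, triangles those numbered 5 and 6, and bars the mean ± SD over 6 libraries. The triangles lie highest for Egr1 and Egr2 in both groups and lowest for Egr3 with HDM, while Nab1, Nab2 and Srf vary little within a group.

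Egr3, a close relative best known from muscle spindles and lymphocytes, had 82, 37, 12, 17, 14 and 6 reads in HDM libraries 1 to 6 and 3, 5, 1, 0, 2 and 1 reads in the vehicle libraries. In CPM the HDM libraries ran from 0.167 over a median of 0.506 to 0.903, against 0 to 0.104 with a median of 0.0436 in the vehicle libraries. The groups did not overlap, though the lowest HDM library and the highest vehicle library lay close together. Of the tested genes, which exclude Egr3, 2.32% had all HDM libraries above all vehicle libraries. Summed, Egr3 had 168 reads with HDM, or 0.554 per M reads (exact 95% Poisson interval 0.473 to 0.644), and 12 reads with vehicle, or 0.0478 per M (0.0247 to 0.0835). The ratio of these sums was 11.6 (95% interval 6.45 to 22.8). These intervals cover counting error only.

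On log2(CPM + 0.5), HDM exceeded vehicle by 0.84 for Egr3 (exact permutation test, two-sided, p = 0.00216, the smallest that 6 against 6 can give). That difference was 1.95 with 0.1 added and 0.29 with 2 added, so its size depends on the constant. In the edgeR fit without a filter Egr3 was 3.37 ± 0.51 SE higher on the log2 scale (adjusted p = 0.00108). With HDM the order of the library sets was the reverse of that of Egr1. There Egr3 averaged 0.239 CPM in numbers 5 and 6 and 0.649 CPM in numbers 1 to 4. With vehicle the order was the same as for Egr1, at 0.0639 and 0.0414 CPM, on few reads. HDM libraries 5 and 6 rest on 14 and 6 reads, and the difference between the sets was not tested.

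**Figure D2:**
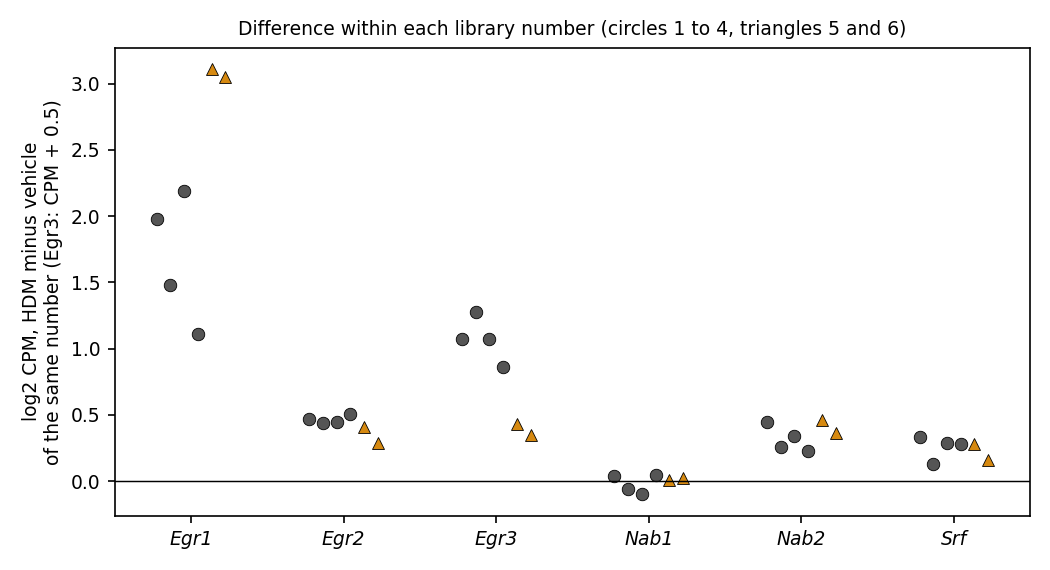
log2 CPM of the HDM library minus that of the same-numbered vehicle library, 6 points per member (circles, numbers 1 to 4; triangles, numbers 5 and 6; Egr3 on log2(CPM + 0.5)). Egr1 is highest in numbers 5 and 6, at 3.11 and 3.05, Egr3 is lowest there, at 0.43 and 0.35, and Egr2 stays between 0.29 and 0.51.

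Nab2, the inducible corepressor, ran from 19.8 over a median of 20.2 to 21.9 CPM in HDM libraries, against 15.4, 16.0 and 17.1 CPM in vehicle libraries. The groups did not overlap, as for 2.32% of tested genes in this direction. Library sets 1 to 4 and 5 and 6 lay together, at 20.6 and 20.9 CPM with HDM and 16.5 and 15.7 CPM with vehicle. HDM libraries averaged 20.7 ± 0.972 CPM of Nab2 and vehicle libraries 16.2 ± 0.675 CPM (SD, n = 6 each), a rise by 0.35 ± 0.04 SE on the log2 scale (edgeR adjusted p = 0.000194). It rose within numbers 5 and 6 (0.43 ± 0.07, adjusted p = 4.8e-05) and within numbers 1 to 4 (0.33 ± 0.05, adjusted p = 0.00105). Across all 12 libraries without the block, Nab2 had the smallest p of the 5 members tested, and with the block Egr1 and Egr2 had smaller ones.

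The Nab2 locus is crowded, and the strand setting of the counting is not given in the sources used here. In GENCODE M21, exons of Nab2, which cover 2941 bases, share 40 bases with Stat6, 151 with Nemp1 and 1050 with the antisense gene model Gm16229, all on the other strand. Stat6, the transcription factor of interleukin-4 signalling, was at 368 ± 16.2 CPM with HDM and 370 ± 14.1 CPM with vehicle (log2 fold change -0.01 ± 0.04 SE, edgeR adjusted p = 1). Nemp1, which encodes a nuclear envelope protein, was at 20.2 ± 3.39 CPM with HDM and 18.1 ± 3.07 CPM with vehicle (0.15 ± 0.13, adjusted p = 0.809, and 0.15 ± 0.04 with an adjusted p of 0.0216 with the library number as a block). Gm16229 was not analysed here, so a share of its reads in the Nab2 count was not tested.

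Nab1, the other corepressor, had 114 CPM at the lowest, a median of 117 and 126 at the highest with HDM, against 113, 117 and 130 CPM with vehicle. The groups overlapped almost wholly. Its log2 fold change was -0.01 ± 0.04 SE (edgeR adjusted p = 1, and 0.914 with the library number as a block). Its sign turned to 0.02 ± 0.04 within numbers 5 and 6 (adjusted p = 0.87).

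The corepressors therefore changed unequally within libraries. The log2 ratio of Nab2 to Nab1 reads was -2.66 to -2.39 in HDM libraries and -3.04 to -2.79 in vehicle libraries, with means of -2.52 ± 0.10 and -2.88 ± 0.08 (SD, n = 6 each). The difference of 0.36 does not depend on how libraries are scaled (exact permutation test, two-sided, adjusted p = 0.00325 over 3 ratios). The log2 ratio of Egr1 to Nab2 was -2.48 ± 1.07 with HDM and -4.33 ± 0.39 with vehicle, a difference of 1.84 (exact permutation test, adjusted p = 0.00325). For Egr2 to Nab2 it was -0.25 ± 0.46 with HDM and -0.33 ± 0.58 with vehicle, and the difference of 0.08 did not pass (exact permutation test, p = 0.695). Egr1 thus moved more than its corepressor, and no difference between the changes of Egr2 and Nab2 was detected.

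Srf, which encodes the serum response factor and is itself one of its targets, ran from 51.0 over a median of 55.8 to 60.6 CPM with HDM, against 43.8, 46.9 and 50.0 CPM with vehicle. The lowest HDM library lay just above the highest vehicle library, and 2.32% of tested genes likewise had no overlap with HDM higher. HDM libraries averaged 55.8 ± 4.34 CPM and vehicle libraries 47.0 ± 2.32 CPM (SD, n = 6 each), a rise by 0.25 ± 0.05 SE on the log2 scale (edgeR adjusted p = 0.0137). The HDM library was higher in all 6 numbers, by 0.13 to 0.33 on the log2 scale. Scaled by total library size alone, the value was 0.23 ± 0.06 and the call was lost (adjusted p = 0.0543), and with the library number as a block the adjusted p was 2.53e-05.

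**Figure D3:**
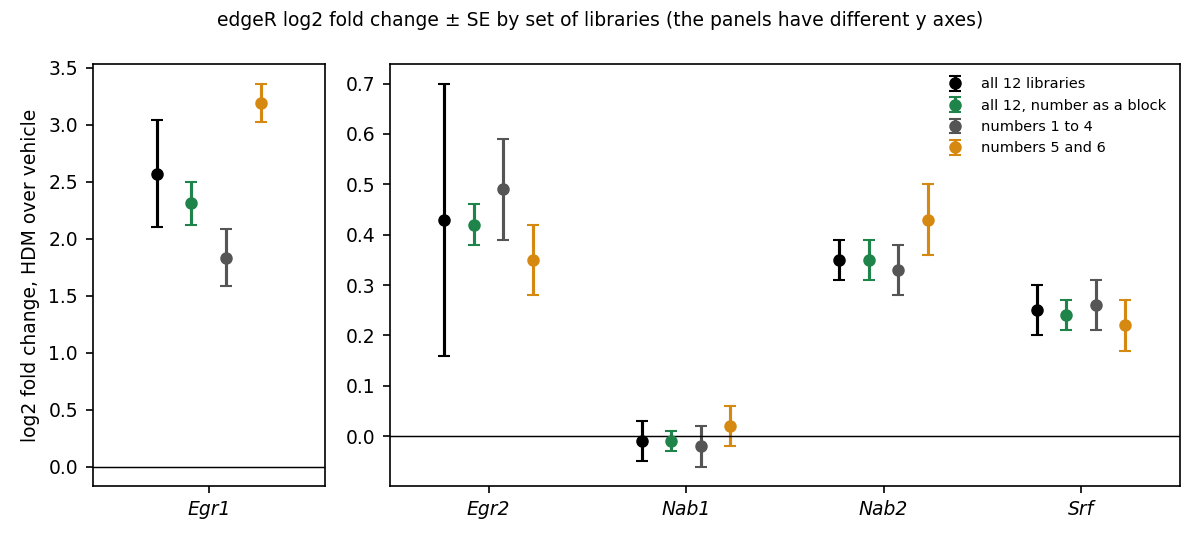
edgeR log2 fold change of HDM over vehicle with its SE for the 5 members tested, from all 12 libraries, from all 12 with the library number as a block, from numbers 1 to 4 and from numbers 5 and 6; Egr1 has a y axis of its own. Egr1 is at 1.83 in numbers 1 to 4 and 3.19 in numbers 5 and 6, Egr2 has an SE of 0.27 without the block and 0.04 with it, and Nab1 stays at 0 within its SE in all 4 fits.

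The genes most like each member were taken from tested genes that averaged 1 CPM or more, by Pearson's r of log2 CPM over the 12 libraries, as a description with no test. These libraries share the treatment and the split by number, and both enter r. The closest to Egr1 were Ripk2, a kinase of NOD receptor signalling (r = 0.973), Tiparp (0.967), Odc1, which makes the polyamine putrescine (0.961), and the phosphatase gene Dusp14 (0.959). All 4 rose, by 0.33 to 1.27 on the log2 scale (edgeR adjusted p 0.000162 to 0.017). Closest to Egr2 were Rassf3 (0.990), Inhba, which encodes an activin subunit (0.986), Arl10 (0.980) and Bcar3 (0.980), none of them called (adjusted p 0.425 to 0.66).

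Nab2 lay closest to Fam110a (r = 0.965), the cytokine feedback gene Socs3 (0.962) and the IkB genes Nfkbia (0.961) and Nfkbid (0.959), which all rose, by 0.77 to 3.50 on the log2 scale (edgeR adjusted p 3.25e-09 to 4.05e-06). Srf lay closest to Ano8 (0.964), Mafg (0.948), Coro2a (0.946) and Cttnbp2nl (0.946), of which Ano8, Mafg and Cttnbp2nl rose. For Nab1 they were Ahsa1 (0.943), Kat2a (0.941), Dars (0.922) and Rgl1 (0.919), none of them called. Among the members, r was 0.807 for Egr1 with Nab2, 0.802 for Nab2 with Srf and 0.732 for Egr1 with Egr2, and -0.713 for Egr2 with Nab1.

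Around the members, genes of the pathway were grouped in 7 lists, described by counts and medians beside a median log2 change of 0.00 over all tested genes. Of all tested genes 5.37% were called in either direction, and a short list with no call lies near that share. The lists were chosen with earlier results of these data known. Their counts beside the shares of all tested genes are therefore descriptions only, and cannot serve as support for a role of a list. Feedback inhibitors of ERK, the kinase whose signal reaches the Elk factors, rose in 6 of 7 tested cases and none fell, with a median of 1.22, beside 2.9% of all tested genes that rose. Spry2, a Sprouty inhibitor, was at 20.0 ± 2.64 CPM with HDM and 7.27 ± 0.811 CPM with vehicle (log2 fold change 1.47 ± 0.09 SE, edgeR adjusted p = 4.41e-07). The MAP kinase phosphatase genes Dusp2, Dusp6 and Dusp1 rose by 2.38 ± 0.20, 1.22 ± 0.10 and 2.68 ± 0.27, with adjusted p of 4.76e-06 to 3.93e-05. With the library number as a block 7 of 7 rose, as did 7.9% of all tested genes. The count was 5 with upper-quartile factors and with total library size, and 5 to 6 without any 1 library.

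The cofactors of serum response factor are the Elk factors and the actin-regulated Mrtf proteins. Of 5 tested, edgeR called none (2 at an unadjusted p under 0.05, and 0 by DESeq2 and by limma-voom), and their median was -0.04. With the block 2 were called higher and 1 lower, beside 7.9% and 6.81% of all tested genes. Elk4 was at 6.07 ± 0.555 CPM with HDM and 7.11 ± 0.566 CPM with vehicle (log2 fold change -0.23 ± 0.08 SE, adjusted p = 0.124, and 0.0237 with the block). Elk1 was at 0.14 ± 0.06 (0.318, and 0.00812 with the block), Elk3 at 0.07 ± 0.09 (0.917, and 0.0422 with the block) and Mrtfa at -0.05 ± 0.06 (0.917, and 0.251 with the block).

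Targets of serum response factor were listed by the cofactor they are known for. Of 9 tested early targets linked to Elk factors, 8 rose and none fell, at a median of 2.22, beside 2.9% of all tested genes that rose. The count was also 8 within numbers 1 to 4, where 5% of all tested genes rose, and within numbers 5 and 6, where 4.25% rose. Zfp36, which encodes an mRNA decay factor, was at 633 ± 37.2 CPM with HDM and 102 ± 22.1 CPM with vehicle (log2 fold change 2.63 ± 0.13 SE, edgeR adjusted p = 3.53e-08). Ier2 rose by 1.14 ± 0.07, the ERK phosphatase gene Dusp5 by 2.22 ± 0.14 and the nuclear receptor gene Nr4a1 by 3.19 ± 0.21, with adjusted p of 1.62e-07 to 4.78e-07. The exception, named after its value was seen, was Mcl1, a survival gene, at 0.02 ± 0.06 (adjusted p = 1).

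The other list held cytoskeletal targets linked to the actin-regulated cofactors. Of 11 tested, edgeR called none (1 at an unadjusted p under 0.05, and 0 by DESeq2 and by limma-voom; with the block Flna as higher), and their median was 0.02. Acta2, a smooth muscle actin gene, was at 1.64 ± 0.282 CPM with HDM and 2.05 ± 0.2 CPM with vehicle (log2 fold change -0.33 ± 0.12 SE, edgeR adjusted p = 0.207). Flna, which encodes an actin crosslinker, was at 0.09 ± 0.05 (0.413, and 0.0353 with the block), Tpm1 at 0.03 ± 0.03 (0.702) and Actg1 at 0.07 ± 0.07 (0.88). Within numbers 5 and 6 alone 1 rose and 2 fell, beside 4.25% and 4.22% of all tested genes. The difference between the lists was not tested.

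The next list held coregulators of Egr and Nab proteins and other members of the family. Of 5 tested, edgeR called none (1 at an unadjusted p under 0.05, and 0 by DESeq2 and by limma-voom), with a median of 0.03. Ep300, a histone acetyltransferase gene, was at 0.17 ± 0.05 SE (adjusted p = 0.102, and 0.000268 with the block, the only call there). Chd4, whose product Nab2 recruits for repression, was at 376 ± 12.5 CPM with HDM and 369 ± 15.2 CPM with vehicle (0.03 ± 0.03, adjusted p = 0.917), Hcfc1 at 0.03 ± 0.04 (0.924) and Crebbp at 0.05 ± 0.06 (0.941). Egr4, the remaining family member, had 3 reads in all, in a single HDM library, and was not tested.

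Among genes reported as Egr targets in various tissues, 4 of 18 tested rose and none fell, with a median of 0.15, beside 2.9% of all tested genes that rose. Tnf, an inflammatory cytokine with many other inducers, rose by 3.73 ± 0.13 SE on the log2 scale (edgeR adjusted p = 1.95e-09). Cdkn1a, a cell cycle inhibitor, was at 535 ± 16.9 CPM with HDM and 387 ± 18.3 CPM with vehicle (0.47 ± 0.04, adjusted p = 3.32e-06). Id3, an inhibitor of helix-loop-helix factors and a target of Egr proteins in lymphocytes, rose by 0.63 ± 0.06 (adjusted p = 2.64e-05), and Pdgfb, a growth factor gene, by 0.66 ± 0.11 (adjusted p = 0.00188). With the block 10 of 18 rose, against 7.9% of all tested genes. The 6 added, named after their values were seen, were Icam1, F3, Plau, Vegfa, Gdf15 and Mmp14.

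The last list held genes of the myeloid fate decision in which Egr and Nab proteins take part. Of 5 tested edgeR called none (0 at an unadjusted p under 0.05, and 0 by DESeq2 and by limma-voom), nor did the fit with the block, and their median was -0.02. Csf1r, the receptor gene on which macrophages depend, was at 1500 ± 50.7 CPM with HDM and 1520 ± 50.5 CPM with vehicle (log2 fold change -0.02 ± 0.04 SE, adjusted p = 0.971). Cebpe was at 0.19 ± 0.29 (0.96), Cebpa at -0.03 ± 0.06 (0.997) and Csf3r, the receptor gene of a neutrophil growth factor, at -0.07 ± 0.24 (1). Gfi1, the neutrophil factor that Egr and Nab proteins repress in mouse progenitors, had 3 reads with HDM and 1 with vehicle and was not tested.

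**Figure D4:**
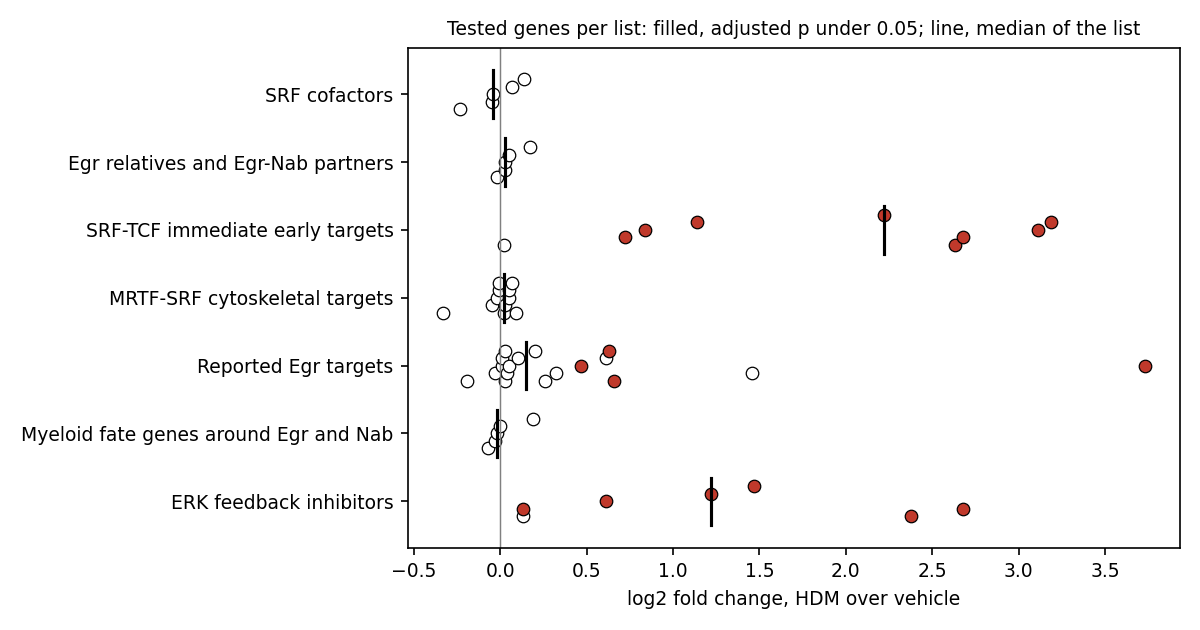
log2 fold change of HDM over vehicle for every tested gene of the 7 lists; filled points passed an adjusted p under 0.05 in the edgeR fit of all 12 libraries, and the vertical line is the median of the list. Early targets linked to Elk factors and ERK feedback inhibitors lie mostly to the right of 0, with medians of 2.22 and 1.22, and the medians of the other 5 lists lie between -0.04 and 0.15.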

How the data were processed

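Libraries were made from column-purified, DNase-treated RNA with a stranded, poly(A)-selecting kit, per the labels' protocols. The authors deposited unscaled whole-number counts of reads per gene in 1 table of 12 libraries, matched by title and library name. Per the submitters' processing notes, the tools named were STAR 2.6.0c, featureCounts 2.0.6, Subread, FastQC 0.12.1, cutadapt 4.5 and Trim Galore 0.6.10, and the builds GRCm38 and mm39, with no role for either build. No source used here gives the annotation, the read layout or the strand setting. Expression values carry no coordinates, and promoter coordinates are those of the RefSeq table.

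Counts were fitted with edgeR 4.0.16 in R 4.3.3 (limma 3.58.1, DESeq2 1.42.0 as alternatives): TMM factors, filterByExpr at its defaults, treatment as the only term. An SE is the absolute log2 fold change divided by the square root of F. The edgeR step was tested on simulated data with no split or pairing by library number, so that check does not bear on the choice of a block. log2 CPM used a prior count of 2, and ratios of reads a constant of 0.5. Genes named are the members, up to 4 per list with the smallest p, the 4 most alike per member (gene models skipped), and genes overlapping a member. The members and lists were chosen with earlier results of these data known.

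The deviations of log2 CPM from group means correlated between same-numbered HDM and vehicle libraries at 0.467, 0.367, 0.387, 0.479, 0.624 and 0.672. All exceed the bound of 0.1, so fits with the number as a block are given beside the main fit, which has none. The same-numbered library was the best match for only 2 of 6 HDM and 3 of 6 vehicle libraries. For all others the best match was another library of the same set. The labels name no pairing, and any pairing by number rests on these correlations alone. Between numbers 5 and 6 and numbers 1 to 4 the correlations had a median of -0.47. Numbers 1 and 2 against 3 and 4 gave 0.19 to 0.29, also above the bound. The bound therefore separates library sets but cannot show that the same number marks a pair.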

Additional observations from a re-analysis of the deposited data

How the results depend on the processing

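The fit of all 12 libraries called 727 genes, with 1990 under the replicate block, 1139 in numbers 5 and 6 alone and 561 to 694 without any 1 library. Egr1 and Nab2 kept direction and call in every alternative run, with Egr1 at 2.17 to 2.75 without any 1 library. The adjusted p of Egr1 was 0.0424 with limma-voom and 4.2e-19 to 0.0424 over all alternatives. The lowest came from the edgeR fit of numbers 5 and 6, with 2 libraries a group. Egr2 was called at 0.42 with the block, 0.35 in numbers 5 and 6 and 0.49 in numbers 1 to 4, and lay at 0.28 to 0.60, uncalled, without any 1 library. Srf lost its call with total library size (0.23) and kept it without any 1 library (0.23 to 0.27, adjusted p 0.00822 to 0.0365). Nab1, near 0, turned to 0.02 in numbers 5 and 6 and lay at -0.02 to 0.02 without any 1 library. In numbers 5 and 6 the exact tests cannot pass the threshold with 2 libraries a group: there Egr3 was at 0.39, Nab2 to Nab1 at 0.40, Egr1 to Nab2 at 2.70 and Egr2 to Nab2 at -0.06, and Egr2 to Nab2 ran from -0.04 to 0.23 without any 1 library. Calls per list under the block, in numbers 5 and 6 and in numbers 1 to 4 were 3, 1 and 1 for cofactors of serum response factor, 1, 0 and 1 for Egr and Nab partners, 1, 3 and 1 for cytoskeletal targets, and 10, 9 and 7 for reported Egr targets. Without any 1 library the cofactors and the partners each had 0 to 1, the change coming without vehicle 6 for cofactors and without HDM 1 or vehicle 5 for partners. The causes were not tested. The block changed no other call of a member or ratio. Scaling moved the median of all tested genes by at most 0.02, and no list median changed sign. Depth limits Egr3 and Egr4, and the vehicle level of Egr1.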

Other observations

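Some genes of the lists were too low to be tested, and their reads are given as counts only. Spry1, a Sprouty inhibitor of ERK signalling, had 126 reads with HDM and 27 with vehicle, and its relative Spry4 had 17 and 3 reads. Elane and Mpo, genes of neutrophil granules, had 8 and 14 reads with HDM against 0 and 3 with vehicle, and the HDM library numbered 4 held 6 and 7 of those reads. Ccn2, an early target of actin signalling in stromal cells, had 41 reads with HDM and 47 with vehicle, and Ccn1 had 18 and 11. Wt1 and Tagln had 0 reads in all 12 libraries. These counts follow library size too, since the HDM library numbered 1 is the deepest at 119.7 M reads.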
